A study of Mus musculus with 12 samples.

Results

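The circRNAs described here were those that were well counted in every library: each had at least 5 reads across its back-spliced junction in each of the 6 rRNA-depleted libraries of the mouse thymus. They were chosen on these junction counts, and 212 of the 6300 circRNAs of the deposited table met the rule. The libraries came from whole thymuses of male C57BL/6 mice, with no genetic change or treatment in any group, at 2 weeks (2W), 6 weeks (6W) and 3 months (3M) of age. There were 2 libraries per age, from separate samples called biological replicates in the study's methods. The question was which genes gave rise to these circRNAs, and how the count of each circRNA related to that of its source gene during thymus growth (2W vs 6W) and early involution (6W vs 3M).

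A circRNA is made when the end of a downstream exon is joined back to the start of an upstream exon, so that the RNA has neither a cap nor a poly(A) tail. Reads that cross this junction are absent from the linear mRNA of the same gene, and closed circles are known to resist exonucleases. Most cells of the thymus are thymocytes, developing T cells that rearrange their antigen receptor genes and pass through selection before they leave the organ, while the epithelium that supports them is a minor part of the tissue. In such whole tissue, fewer cells of a type and less RNA per cell cannot be told apart.

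The 212 circRNAs held between 43.5% and 44.7% of all junction counts in each library, of totals that ran from 10663 to 21914 junction counts. The mRNA totals of the same libraries ran from 16519753 to 22553481 estimated counts. A count of 5, the minimum of the rule, has an exact Poisson 95% interval of 1.62 to 11.7, and the median count of the 212 circRNAs lay between 13.0 and 26.5 per library. A floor of 3 counts corresponds to between 137 and 281 junction reads per 1000000 (RPM), depending on the library. Such intervals cover counting error only and leave out variation between samples. PCR copies, which were not removed by molecular identifiers, are not allowed for either.

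At the threshold itself, 36 of the 212 circRNAs had a lowest count of exactly 5, with sums over the 6 libraries from 34 to 142, and 52 circRNAs with a lowest count of 4 fell just outside, with sums from 29 to 115. A Bcl11b circRNA, novel_circ_001448, was inside with 15 and 14 counts at 2W, 26 and 54 at 6W, then 5 and 28 at 3M. A circRNA of Fbxw7, which encodes the substrate-binding part of a ubiquitin ligase, was outside with 18 and 14 counts, 35 and 25, and 4 and 19. At this edge the rule parts circRNAs whose summed counts overlap.

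Of the 212 circRNAs, 202 had a source gene in the deposited annotation, and these came from 165 genes, all of which were found in the mRNA table. Circles of several annotated exons made up 162 of them (76.4%), and 30 (14.2%) consisted of one exon. Among the 2567 other circRNAs with at least 6 counts in all, these shares were 79.2% and 7.67%. There were 7 circRNAs of exon and intron sequence, 2 antisense, 1 intronic and 10 intergenic by the deposited classes. The median spliced length was 598 nucleotides with quartiles of 396.5 and 976.25, against a median of 550 in the other circRNAs. A match in circBase, a public collection of circRNAs, was recorded for 45 (21.2%), against 9.47% of the others. These shares are descriptions of circRNAs chosen by abundance. They were spread over 20 chromosomes, from 23 on chromosome 17 and 19 each on chromosomes 1 and 5 to 2 on X.

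The deposited coordinates carry no build name. All 200 of the circRNAs whose source gene could be placed in RefSeq's GRCm38.p6 annotation lay inside that gene there, although mm8 is the build listed in the submitters' notes, with no role given. Positions are therefore printed as deposited, and no junction sequence was read.

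The most abundant circRNA was novel_circ_002652 of Satb1, at chr17:51803431-51809287 on the minus strand, a circle of annotated exons with a spliced length of 673 nucleotides. Satb1 encodes a chromatin organiser that is abundant in thymocytes. Its junction was read 307 and 248 times at 2W, 769 and 867 times at 6W, and 313 and 568 times at 3M, and it alone supplied 7.84% of the junction counts of the 212 circRNAs. In RPM, the deposited share of a library's junction reads, it stood at 28791 and 22308 at 2W, 41035 and 39564 at 6W, and 28135 and 36893 at 3M. Both 6W libraries were higher than every other library.

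A one-exon circle of Themis, novel_circ_000493 at chr10:28781691-28782742, came second. Themis encodes a protein that tunes T cell receptor signalling during thymocyte selection. Its levels were 28416 and 35801 RPM at 2W, 26201 and 23547 at 6W, and 27775 and 29683 at 3M. In RPM the 6W libraries were the lowest of the 6. Per 1000 source gene counts the order turned, with 25.6 and 26.1 at 6W above 19.7 and 19.8 at 2W and the 3M libraries on either side of 6W at 17.6 and 29.5. In the TMM-scaled edgeR fit of junction counts used below, without the source gene, the log2 change from 2W to 6W was -0.04 ± 0.23 (SE, adjusted p = 0.987). In the edgeR fit per source gene count it was 0.39 ± 0.30 (adjusted p = 0.757).

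A second Satb1 circle, novel_circ_002641, came next with a mean of 18255 RPM. After it, 4 came from Mettl9 (11403 RPM), which encodes a histidine methyltransferase, Nsd2 (10803 RPM), which encodes a histone H3 methyltransferase, Arid1a (9267 RPM), a subunit of the SWI/SNF chromatin remodeller, and Tulp4 (8234 RPM), a member of the tubby-like family. Circles of Morc3 (5419 RPM), a nuclear ATPase, Bub1b (5362 RPM), a mitotic checkpoint kinase, and Rasa2 (4851 RPM), a negative regulator of Ras, completed the highest 10. These 10 together held 30.9% of the counts of the 212 circRNAs, whose median was 1288 RPM and whose lowest was 402 RPM.

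**Figure D1:**
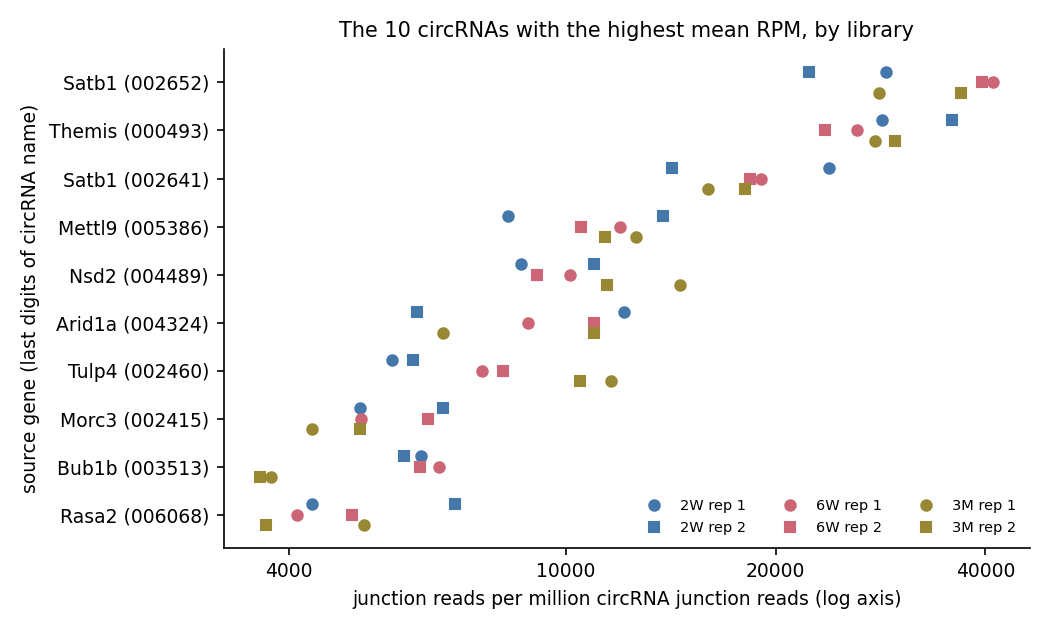
Level in RPM (log axis) for the 10 circRNAs with the highest mean, in each of the 6 libraries (colours are ages, circles replicate 1 and squares replicate 2). The upper Satb1 circle is highest in both 6W libraries, Tulp4 is highest in both 3M libraries and Bub1b is lowest in both.

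The level of a circRNA and that of its gene were compared next. Over the 202 circRNAs with a source gene, Spearman's rho between mean RPM and the mean FPKM of the source gene was 0.10, a description over circRNAs of the same libraries, some of which share a gene, and chosen within a limited range of counts. To compare genes of different length, the junction count per 1000000 mRNA counts was divided by the FPKM of the source gene, which is itself per length. This level per length had a median of 0.0320 and differed 512-fold between its extremes. The 2495 other circRNAs with at least 6 counts and a source gene had a median of 0.00392, a difference that a rule on junction counts favours. The source genes of the 212 circRNAs had a median of 30.7 FPKM, against 22.9 FPKM in the 1385 genes with only less counted circRNAs.

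The 5 highest levels per length belonged to Tulp4 (0.383), Zfp827 (0.357), Ttll3 (0.339), Alg12 (0.223) and Pms1 (0.221). Zfp827 encodes a zinc finger protein, Ttll3 a tubulin glycine ligase, Alg12 a mannosyltransferase of the endoplasmic reticulum and Pms1 a mismatch repair protein. The Tulp4 circle, novel_circ_002460 at chr17:6137211-6139156 on the plus strand, was classed as exon and intron sequence. It was counted 60 and 67 times at 2W, 142 and 178 times at 6W, and 129 and 161 times at 3M, while its gene lay between 12.7 and 18.4 FPKM. For every 1000 counts of the gene there were 30.4 and 29.3 junctions at 2W, 42.0 and 54.5 at 6W, and 46.1 and 46.8 at 3M. The order depends on the transcripts summed: with annotated transcripts alone as the denominator, 2W replicate 2 was the highest library at 205, against 47.7 in 2W replicate 1, 75.8 and 90.8 at 6W, then 82.0 and 53.0 at 3M.

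The Satb1 circles novel_circ_002649 and novel_circ_002639 stood at the other end with 0.000748 and 0.00108, followed by those of Ets1 (0.00149), Themis novel_circ_000490 (0.00175) and Ddx17 (0.00253). Ets1 is a transcription factor of lymphocytes and Ddx17 an RNA helicase. Satb1 itself ran between 720 and 929 FPKM, so the gene with the most abundant circle also gave rise to 2 of those lowest per length.

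**Figure D2:**
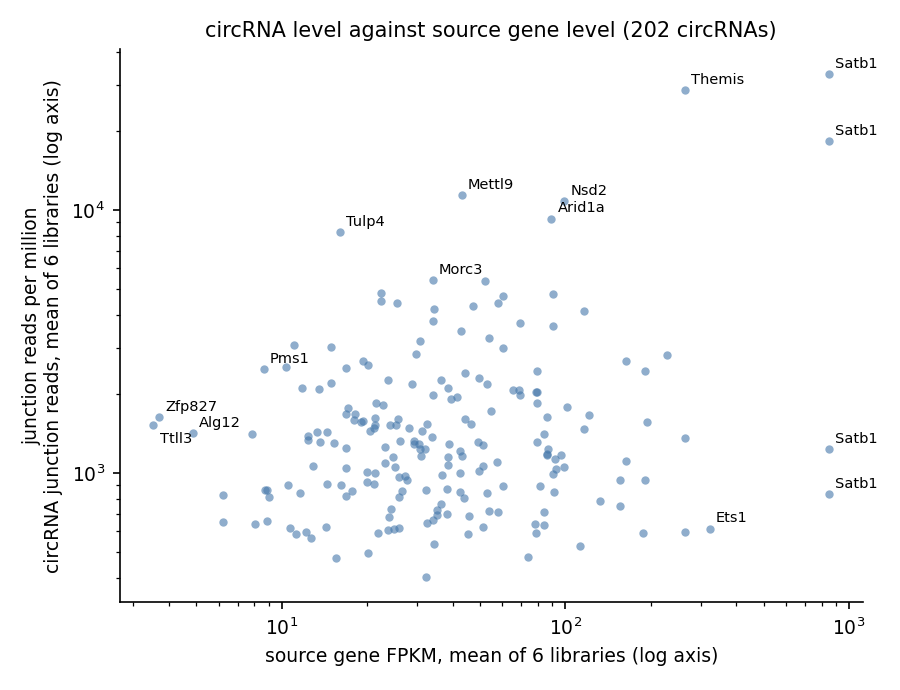
Mean RPM of each of 202 circRNAs against the mean FPKM of its source gene over the 6 libraries, both on log axes, each point being 1 circRNA. Satb1 appears 4 times at the same FPKM, from 829 to 32788 RPM, and Tulp4, Zfp827, Ttll3, Alg12 and Pms1 are labelled on the left.

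A source gene gave rise to 1 of the 212 circRNAs in 138 genes and to 2 in 20 genes. Ttc3, Themis, Zfp644 and Rere had 3 each, and Satb1, Morc3 and Ezh2 had 4 each. The source genes had a median of 4 circRNAs in the whole table, with a highest number of 29 in Satb1, and in 21 cases the member was the only circRNA of its gene. For 140 of the circRNAs, more than 50% of all junction counts of the gene fell on that circle, and the median share was 73.2%. Ends were reused: 52 of the 212 shared a start or an end with another of the 212 on the same strand, and 159 shared one with any circRNA of the table. Circles that share an end are not independent counts of a gene.

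At Satb1, novel_circ_002652 and novel_circ_002641 shared the end at position 51809287 and held 58.8% and 31.1% of the gene's junction counts. The quotient of the first over the second was 1.21 and 1.57 at 2W, 2.15 and 2.15 at 6W, and 1.76 and 2.04 at 3M. It was lowest in both 2W libraries and highest in both 6W libraries, and as a ratio of counts within a library it does not depend on scaling. This pair and those given below at Morc3 and in the chromosome 17 stretch were chosen after their values were seen, and with 2 libraries against 2 an exact permutation test cannot go below a two-sided p of 0.333. Satb1 circles as a group gave 6.77 and 4.41 junctions per 1000 source gene counts at 2W, 12.3 and 12.1 at 6W, and 5.95 and 9.41 at 3M.

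Themis rested on 1 circle, since novel_circ_000493 held 90.8% of its junction counts and between 88.1% and 92.5% in each library. At Ezh2, the histone H3 methyltransferase of Polycomb, no circle dominated: the 4 held 27.6%, 24.1%, 20.9% and 15.4% of the junction counts. The largest, novel_circ_004897, was counted 34 and 41 times at 2W, 46 and 55 times at 6W, and 22 and 13 times at 3M. Another that shares its end, novel_circ_004902, was counted 23 and 21, 31 and 36, and 23 and 26 times. The 3M libraries were thus the lowest of the 6 for the first and overlapped 2W for the second.

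Ttc3, a ubiquitin ligase gene, used 1 start at position 94383912 for its 3 circles, which together gave 16.6 and 15.3 junctions per 1000 source gene counts at 2W, 28.9 and 30.4 at 6W, and 17.7 and 24.7 at 3M. Rere, a nuclear receptor co-regulator, also used 1 start for its 3 circles, with 19.4 and 19.8, 28.1 and 34.3, and 16.1 and 13.5. At Zfp644, a zinc finger gene whose 3 circles shared an end, the values were 15.7 and 13.3, 18.6 and 25.9, and 13.4 and 15.4. Both 6W libraries were above all others in each of these 3 genes.

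Morc3 gave the highest sums of the 7 genes, at 69.9 and 89.0 junctions per 1000 source gene counts at 2W, 101 and 133 at 6W, and 59.6 and 74.6 at 3M. Its novel_circ_002415 and novel_circ_002416 had the same coordinates, chr16:93847281-93853217, on the plus and the minus strand. The second was classed as antisense, and it is part of these sums. The quotient of the pair, plus over minus, was between 1.16 and 1.61 in the 2W and 6W libraries and 1.33 and 2.29 at 3M, with no separation of the ages. How reads were assigned to the strands of the circRNA table is not given in the sources used here, so the counts of this pair are uncertain.

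**Figure D3:**
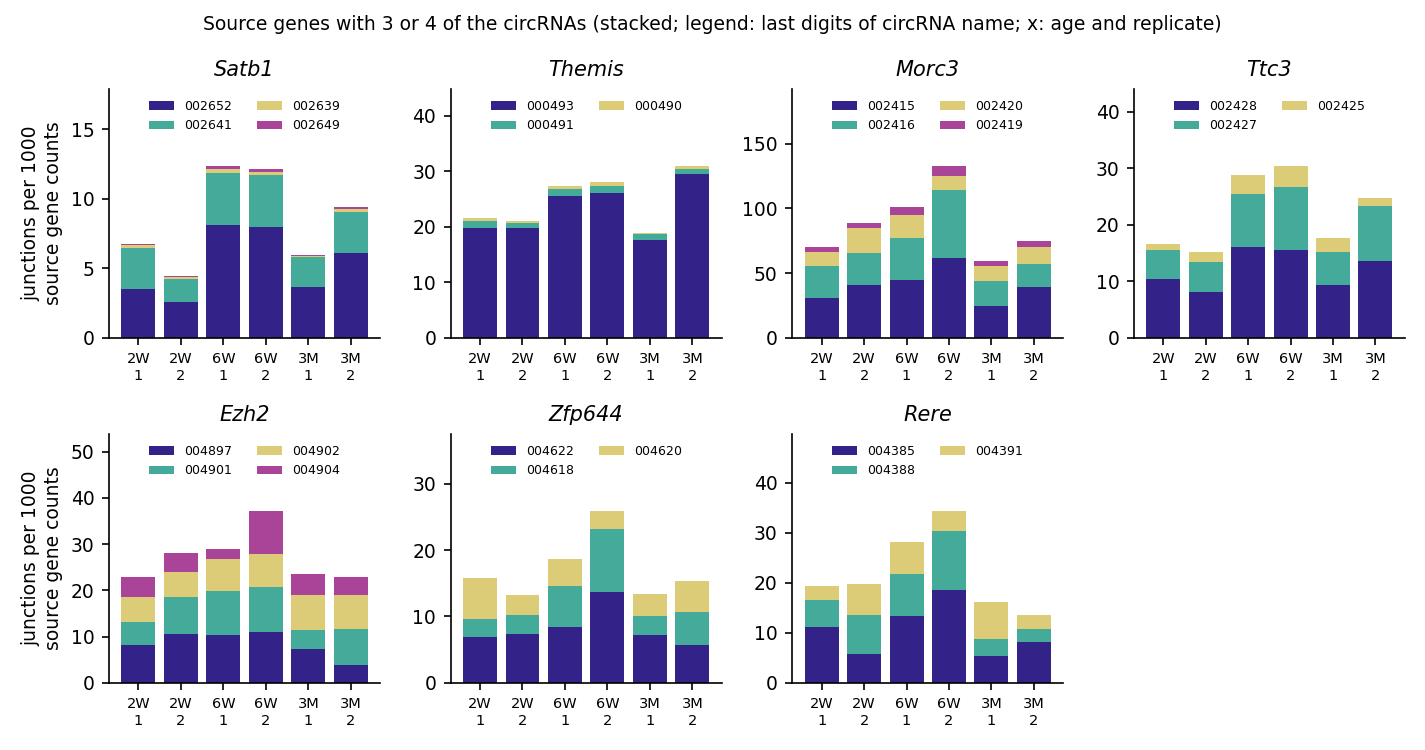
Junctions per 1000 source gene counts of the 7 source genes with 3 or 4 of the circRNAs, stacked by circRNA (legend, last digits of the name) in each library, with age and replicate on the x axis. Both 6W bars are the tallest for Satb1, Morc3, Ttc3, Ezh2, Zfp644 and Rere, while at Themis the highest bar is a 3M library.

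The count of each circRNA was then set against the summed counts of its source gene. The median over the 202 circRNAs was 5.09 and 5.25 junctions per 1000 source gene counts in the 2W libraries, 7.66 and 8.70 at 6W, and 5.86 and 6.60 at 3M. By age the medians averaged 5.17 ± 0.108 at 2W, 8.18 ± 0.736 at 6W and 6.23 ± 0.522 at 3M (SD, n = 2 libraries), and the 3 ages did not overlap. With a minimum of 10 counts per library, 2W (8.65 and 7.94) and 3M (7.39 and 9.998) overlapped, and 6W (13.4 and 14.01) lay above both. All junctions together followed the same order, with 645 and 653 per 1000000 mRNA counts at 2W, 916 and 972 at 6W, and 663 and 707 at 3M. Circles of one exon had medians of 7.95 and 6.59 at 2W, 9.87 and 11.5 at 6W, then 6.15 and 7.58 at 3M, and those of several annotated exons 5.02 and 5.11, 7.63 and 7.95, and 5.88 and 6.15. The 2 classes therefore shared the 6W maximum, and in both the 2W and 3M values were closer to each other than to 6W.

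**Figure D4:**
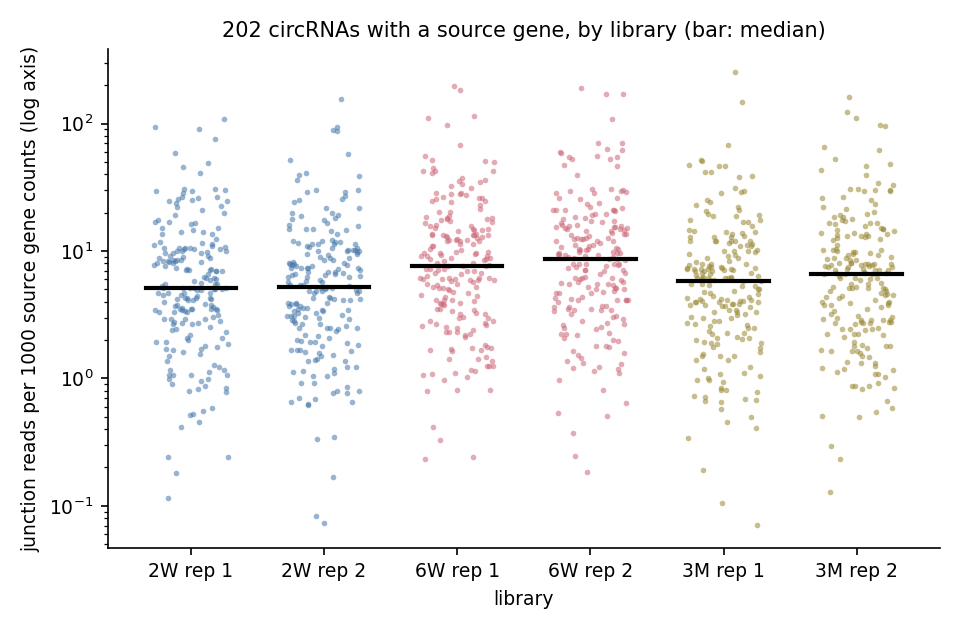
Junction reads per 1000 source gene counts (log axis) of the 202 circRNAs with a source gene, 1 point per circRNA and library, with the median as a bar. The medians are 5.09 and 5.25 at 2W, 7.66 and 8.70 at 6W, and 5.86 and 6.60 at 3M.

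For single circRNAs, the change of junctions per source gene count was fitted in edgeR over the 2694 circRNAs of the table with at least 6 junction counts and a source gene with at least 10 counts per library. Between 2W and 6W the median log2 change of the 202 circRNAs was 0.61, with quartiles of 0.24 and 0.93, and 174 of 202 were higher at 6W. The median of all 2694 circRNAs tested was 0.65, and 69.4% of them were higher at 6W. Both 6W libraries were above both 2W libraries in 124 of the 202, against a background of 32.6% of all circRNAs tested, and both were below in 7, against 7.2%. The well counted circRNAs have more reads per junction than the rest, and the part of depth in these shares was not tested. Scaled to the total of circRNA junctions in place of mRNA, the median change of the 202 was 0.08 and that of all tested 0.14. With TMM factors of the junction counts in the offset, the median was 0.45, 167 of 202 were higher, and 26 passed the study threshold given next, all higher. The size of the change thus depends on the scaling, and the first of these scalings was chosen after seeing the data.

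Under the threshold of the study, an unadjusted p under 0.05 and an absolute log2 change over 1, 39 of the 202 circRNAs passed and all 39 were higher at 6W, against a background of 6.31% of all tested. With the adjusted p of edgeR's quasi-likelihood test under 0.05, 1 passed, against 0.111% of all tested. This was Satb1 novel_circ_002652, with 3.51 and 2.60 junctions per 1000 source gene counts at 2W, 8.10 and 7.97 at 6W, and 3.68 and 6.07 at 3M. Its log2 change from 2W to 6W was 1.40 ± 0.31 (SE, adjusted p = 0.0104), which exceeds the median of all circRNAs tested by more than its SE. The call was lost when either 2W or either 6W library was left out (adjusted p from 0.107 to 0.811), in DESeq2 (0.0531), with a replicate block (0.0675) and when scaled to total junctions (log2 change 0.86, adjusted p = 0.967). Satb1 mRNA did not pass over this interval, with a log2 change of -0.27 ± 0.11 (adjusted p = 0.246).

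Between 6W and 3M, a comparison that shares the 6W libraries with the one above, the median log2 change was -0.43 with quartiles of -0.76 and -0.12, and 167 of the 202 circRNAs were lower at 3M. The median of all 2694 was -0.56, and 31.9% of them were higher at 3M. Both 3M libraries were below both 6W libraries in 105 of the 202, against a background of 31.1%, and above in 3, against 7.68%. Scaled to total junctions the median change was 0.02, while with TMM factors of the junction counts it was -0.21, 137 of 202 were lower, and 10 passed the study threshold, all lower. The study threshold was passed by 20 circRNAs, all lower at 3M, against a background of 4.9%, and by 42 without 3M replicate 2. None had an adjusted p under 0.05 in edgeR (background 0%), with 37 at an unadjusted p under 0.05, and DESeq2 also gave 0.

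Circles of Pan3 and Paip2 were among those with the smallest p that were lower in both 3M libraries. Pan3 encodes a subunit of a poly(A) nuclease and Paip2 an inhibitor of the poly(A)-binding protein. The Pan3 circle, novel_circ_004782, gave 3.50 and 2.80 junctions per 1000 source gene counts at 2W, 5.76 and 6.18 at 6W, and 1.19 and 2.23 at 3M. Its log2 change from 6W to 3M was -1.76 ± 0.45 (SE, adjusted p = 0.0733). Its 3M libraries lay below the 2W libraries too. Among those higher in both 3M libraries, circles of Ncoa2 and Ezh2 (novel_circ_004902) had log2 changes of 0.22 and 0.10, each smaller than its SE.

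Between 2W and 3M the median log2 change was 0.14, and 121 of the 202 circRNAs were higher at 3M, beside 52.6% of all tested. Without 3M replicate 2 the direction turned, to a median of -0.06 with 99 higher and 103 lower. Both 3M libraries were higher in 45, against a background of 16.4%, and lower in 30, against 13.3%. The study threshold was passed by 8 that were higher and 1 that was lower, against a background of 3.67%, and by 15 and 16 in all without 2W replicate 2 and without 3M replicate 1. None had an adjusted p under 0.05 in edgeR (background 0%), with 17 at an unadjusted p under 0.05 and 0 in DESeq2. Circles of Ikzf1, Gigyf2 and Erbin had the smallest p among those higher in both 3M libraries. The Ikzf1 circle gave 0.516 and 0.655 junctions per 1000 source gene counts at 2W, 1.26 and 2.54 at 6W, then 2.12 and 1.02 at 3M, a log2 change from 2W to 3M of 1.37 ± 0.49 (SE, adjusted p = 0.871). Circles of Insr and Tut4 were lower in both. The insulin receptor circle, novel_circ_005478, gave 13.7 and 14.6 at 2W, 15.1 and 17.3 at 6W, then 7.24 and 7.55 at 3M, a log2 change of -0.93 ± 0.40 (adjusted p = 0.871), with little spread within an age.

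**Figure D5:**
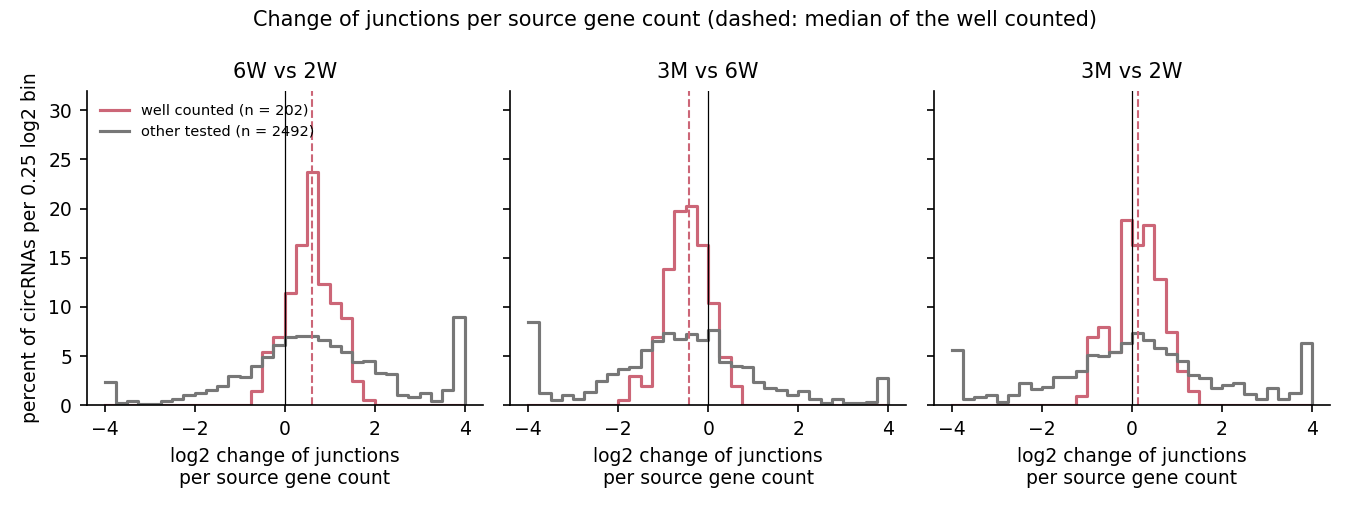
Percent of circRNAs per 0.25 log2 bin of the change in junctions per source gene count, for the 202 well counted circRNAs and the 2492 others tested, in 3 comparisons of which each pair shares an age. Dashed lines mark the medians of the well counted, 0.61, -0.43 and 0.14, and values beyond 4 in either direction are drawn in the outermost bins.

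Junction counts were also compared without the source gene, over the 2779 circRNAs with at least 6 counts and with the scaling of edgeR (TMM). Because each of the 212 had to reach 5 counts in every library, circRNAs that vanish at an age were not among them. From 2W to 6W, 15 of the 212 passed the study threshold, 11 higher and 4 lower, against a background of 4.03%. From 6W to 3M, 19 passed, 3 higher and 16 lower, against 4.5%, and from 2W to 3M, 15 passed, 8 higher and 7 lower, against 3.92%. The direction depended on scaling and filter. Without TMM, scaled by library totals alone, the splits were 2 higher and 9 lower, 5 and 5, and 6 and 10. With TMM over the 250 circRNAs left by a stricter filter they were 2 and 7, 4 and 5, and 5 and 10, in DESeq2 2 and 6, 4 and 5, and 5 and 6. The count from 6W to 3M was 11 without 2W replicate 1, and that from 2W to 3M was 23 without 2W replicate 2 and 9 without 3M replicate 1. With library totals alone the median change of all circRNAs from 2W to 6W moved from 0.36 to 0.06.

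Adjusted p under 0.05 in edgeR was reached by 0 of the 212 from 2W to 6W (background 0%, 31 at an unadjusted p under 0.05), by 4 from 6W to 3M (background 0.288%) and by 0 from 2W to 3M (background 0.036%, 26 at an unadjusted p under 0.05). DESeq2 gave 0, 2 and 0. Among those with separate libraries, the smallest p for an increase from 2W to 6W were those of the Satb1 circle above (log2 change 0.98, adjusted p = 0.0515), of the Elf2 circle, from an ETS family transcription factor gene (1.20, adjusted p = 0.255), and of the circle of Ikzf1, the lymphoid factor Ikaros (1.43, adjusted p = 0.569). For a decrease they were those of novel_circ_002600 (-0.99), the Ptpn14 circle (-1.72) and novel_circ_002601 (-1.14), each with an adjusted p of 0.569.

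From 2W to 3M the smallest p for an increase belonged to circles of Tulp4 (log2 change 0.98, adjusted p = 0.251), Crebrf (1.39, 0.819) and Lrch3 (0.86, 0.819). The Crebrf circle was counted 9 and 6 times at 2W, 20 and 32 times at 6W, and 21 and 25 times at 3M, and the Lrch3 circle 27 and 39, 98 and 74, and 62 and 76 times. For a decrease they belonged to circles of Bcl11b (-1.19, adjusted p = 0.251), Ezh2 (novel_circ_004897, -1.27, 0.38) and Ptpn14 (-1.63, 0.813). All 6 were picked by smallest p among circRNAs with separate libraries. Both libraries of 3M had to lie on the same side of both libraries of 2W once scaled for depth. None passed the adjusted test.

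Of the 4 circRNAs called from 6W to 3M, 2 were lower. The Bcl11b circle novel_circ_001449, at chr12:107989465-107989830 on the minus strand, is a one-exon circle of 366 nucleotides from the gene of a factor required for T cell commitment. It was counted 78 and 38 times at 2W, 86 and 111 times at 6W, and 17 and 44 times at 3M, a log2 change from 6W of -1.35 ± 0.32 (SE, adjusted p = 0.0196). The call was lost with library totals alone, with no filter, with a stricter filter and in DESeq2 (adjusted p from 0.187 to 1.0), and without either 6W library or 3M replicate 1 (0.264 to 0.991). Per 1000 source gene counts it stood at 4.68 and 2.08, 4.74 and 5.51, and 1.39 and 2.85. From 6W to 3M this did not pass the adjusted test of edgeR (log2 change -1.25 ± 0.36, adjusted p = 0.14). Bcl11b mRNA was lower at 3M than at 2W (log2 change -0.61 ± 0.09, adjusted p = 0.0131), a call that was lost without 2W replicate 2. Nearly all source gene calls over this interval were also lost with a replicate block, without 2W replicate 1 and without either 6W library. The Paip2 circle was counted 27 and 11, 50 and 44, and 8 and 16 times, a log2 change from 6W to 3M of -1.62 ± 0.42 (adjusted p = 0.04), and its call was lost under each other setting tried but 1, that without 2W replicate 2.

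The 2 higher ones, novel_circ_002601 and novel_circ_002602, had no source gene and lay 4 bases apart at chr17:39845823-39846116 and chr17:39845827-39846120 on the plus strand. No gene of the RefSeq table covers this stretch. It is known to hold a copy of the precursor ribosomal RNA in GRCm38, and the libraries were made after removal of rRNA. The first was read at 2720 and 3688 RPM at 2W, 1227 and 1095 at 6W, then 4854 and 4547 at 3M, a log2 change from 6W to 3M of 1.75 ± 0.35 (SE, adjusted p = 0.00146). The second stood at 1969 and 3598, 1227 and 867, and 4135 and 3897 RPM, with 1.68 ± 0.36 (adjusted p = 0.00518). Their shared position means that they are not 2 independent findings. Both calls held in DESeq2, with library totals alone, with no filter and with a stricter filter. Both were lost without either 6W library (adjusted p of novel_circ_002601 0.162 and 0.383) or without 3M replicate 1 (0.0551), and that of novel_circ_002602 also without 3M replicate 2 (0.0717).

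Another circRNA, novel_circ_002600, had the coordinates of novel_circ_002601 on the minus strand, with 5908 and 6656 RPM at 2W, 2721 and 2327 at 6W, and 5573 and 5196 at 3M. Plus over minus, the quotient was 0.46 and 0.554 at 2W, 0.451 and 0.471 at 6W, and 0.871 and 0.875 at 3M. Both strands were lowest at 6W, while their balance differed at 3M. One more, novel_circ_002572, lay nearby on the minus strand. The other 6 without a source gene lay within RefSeq genes Ighm, 2610307P16Rik, Pvt1, Malat1 and Firre, or in none, and were read between 6 and 60 times per library.

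The source genes themselves were tested in the mRNA table. Of the 165, 1 passed an adjusted p under 0.05 from 2W to 6W, against a background of 1.74% of 14805 genes. This was Ptpn14, a tyrosine phosphatase gene, with 253 and 266 counts per 1000000 mRNA counts (CPM) at 2W, 125 and 118 at 6W, then 131 and 142 at 3M, a log2 change of -1.09 ± 0.11 from 2W to 6W (SE, adjusted p = 0.0231). The call was lost without either 2W or either 6W library. Its circle was counted 16 and 22 times at 2W and 6 and 11 times at 6W (log2 change -1.72 ± 0.55, adjusted p = 0.569). None passed from 6W to 3M in edgeR, against a background of 0.00675%, with 17 at an unadjusted p under 0.05 and 1 in DESeq2.

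From 2W to 3M, 14 of the 165 passed, 2 higher and 12 lower, against a background of 11.0%. The 12 lower ones were Ptpn14, Strbp, Arpp21, Bcl11b, Eefsec, Zeb1, Trim24, Ezh2, Cnot2, Kat6b, Cyfip2 and Usp3, with log2 changes from -0.93 to -0.41, and the 2 higher ones were Man2a1 (0.52) and Nfix (0.69). With a replicate block 1 was called, and in DESeq2 23. Nearly all of the 14 calls were lost when either 2W or either 6W library was left out. Without 3M replicate 1 more were called than with all libraries. Ezh2 mRNA, for instance, stood at 266 and 238 CPM at 2W, 217 and 222 at 6W, and 183 and 155 at 3M. The median log2 change of the 165 genes was -0.18 from 2W to 6W, where 138 were lower, 0.03 from 6W to 3M and -0.13 from 2W to 3M, beside medians of all genes of -0.01, 0.02 and -0.03. Of all genes, 49.2% were higher at 6W than at 2W. The source gene counts are the denominator of the junctions per source gene count above.

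As a background for the lists that follow, the 165 source genes made up 1.11% of the 14805 genes tested and 5.73% of the 2879 genes with any circRNA in the table. Grouped by the role of the source gene, 6 of the 28 listed T lineage transcription factors were source genes, with 11 circRNAs from Bcl11b, Ikzf1, Ets1, Satb1, Nfatc3 and Zeb1. From 2W to 6W, 10 of these 11 had more junctions per source gene count, beside 69.4% of all circRNAs tested. The median log2 change of the 11 was 1.14, beside 0.65 over all circRNAs tested. Of the 11, 4 are Satb1 circles, which share a denominator. The study threshold was passed by 5 of the 11, beside 39 of the 202 and 6.31% of all tested. These 5 came from Satb1 (novel_circ_002652 and novel_circ_002649), Ikzf1, Bcl11b (novel_circ_001448) and Zeb1. From 6W to 3M, 1 passed the study threshold, Bcl11b novel_circ_001449, and the median of the 11 was -0.72. Of the mRNAs of the 28 genes, 1 was lower and none higher at 6W than at 2W by adjusted p under 0.05, beside 0.263% of all genes lower. From 2W to 3M, 7 were lower and none higher, beside 3.1% of all genes lower and 7.91% higher. The genes called from 2W to 3M in the lists that follow are read against these shares, and their number over all genes, 1630, ran from 224 without 2W replicate 1 to 1758 without 3M replicate 1.

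TCR signalling gave 3 source genes of 32, Themis, Sos1 and Fyb, with 5 circRNAs, of which 4 were higher at 6W than at 2W and none passed the study threshold (median log2 change 0.32). The Fyb circle was counted 13 and 20 times at 2W, 16 and 19 at 6W, and 11 and 6 at 3M. Of the 32 genes, 1 fell from 2W to 3M.

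Chromatin and transcription regulators were the largest group, with 9 of 48 genes and 13 circRNAs, 11 of them higher at 6W (median 0.44) and none past the study threshold. The Nsd2 circle novel_circ_004489 gave 10.02 and 12.2 junctions per 1000 source gene counts at 2W, 20.1 and 19.6 at 6W, and 19.1 and 19.2 at 3M. Its 3M values lay just under its 6W values. The Arid1a circle gave 10.5 and 6.79, 13.0 and 15.6, and 7.32 and 10.2. Log2 changes from 6W to 3M were -0.05 ± 0.31 and -0.70 ± 0.31 (SE, adjusted p = 0.997 and 0.728). Of the 48 genes, 4 fell from 2W to 3M.

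RNA-binding proteins gave 6 source genes of 34, with 6 circRNAs (median 0.58 from 2W to 6W, 1 past the study threshold, that of the cleavage factor gene Cpsf6). Of the 34 genes, 1 rose and 1 fell from 2W to 3M. Ubiquitin ligases and deubiquitinases gave 4 of 32, with 5 circRNAs, all higher at 6W (median 0.80) and 1 past the study threshold, that of Trim33, with 3.79 and 3.67 at 2W, 9.14 and 8.999 at 6W, and 6.41 and 5.93 at 3M. From 6W to 3M 2 of these 5 passed, both lower, among them that of Ube2k. Of the 32 genes, 1 fell from 2W to 3M.

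None of the 37 listed genes of DNA replication, repair and mitosis and none of the 7 of V(D)J recombination was a source gene of the 212, although 30 and 4 of them had a circRNA in the table (Bub1b and Pms1 were not on the list). With 5.73% of genes with a circRNA being source genes of the 212, a count of 0 in lists of this size lies near the background. By the same test, 8 of the 37 and 2 of the 7 were lower at 3M than at 2W, beside the 3.1% of all genes, and none was higher. None of the listed markers of thymic epithelium (15), B cells (12), myeloid and dendritic cells (14), erythroid cells (9, of which 8 were in the mRNA table), adipocytes (10), fibroblasts (11) or endothelium (10) was a source gene either. Few of them were the deposited source gene of any circRNA: 4 of epithelium, 3 of myeloid and dendritic cells, 2 of fibroblasts, 1 of endothelium and 0 of the other lists. Ighm, which is on the B cell list, covered a circRNA of the 212 that had no deposited source gene.

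Several of these lists moved with age in the mRNA table, summed in CPM. Myeloid and dendritic markers stood at 422 and 365 at 2W, 844 and 791 at 6W, and 833 and 899 at 3M, with 10 of 14 genes higher at 3M than at 2W by adjusted p, beside 7.91% of all genes. Adipocyte markers stood at 63.7 and 64.9, 250 and 245, and 605 and 293, with 8 of 10 higher, and B cell markers at 461 and 376, 684 and 616, and 749 and 693, with 2 of 12 higher. Thymic epithelial markers stood at 1846 and 1713, 1926 and 1875, and 2192 and 2332 (3 higher and 2 lower), so that each later age was higher in both libraries. Fibroblast markers stood at 621 and 683, 676 and 633, and 548 and 443 (4 higher and 3 lower), lowest in both 3M libraries, and endothelial markers lay between 275 and 296 (2 higher and 0 lower). Erythroid markers reached 2168 in 3M replicate 2 and lay between 402 and 817 in the other libraries, with none past the test. The T lineage factors summed to 17407 and 17715 at 2W, 15189 and 15312 at 6W, then 14473 and 13729 at 3M. The V(D)J recombination genes summed to 11304 and 13282, 10457 and 10218, and 9593 and 9231, so that in both lists each later age was lower in both libraries. The part of these lists in the circRNA values was not tested.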

How the data were processed

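Thymus RNA of the 6 libraries had been depleted of rRNA, made strand-specific by dUTP and sequenced on an Illumina HiSeq, per the study's methods. The authors deposited the back-spliced junction count of each circRNA as whole reads, and RPM, which are those counts per 1000000 junction counts of the library. For mRNA the authors deposited an estimated count per transcript and its FPKM, computed from the same libraries. The circRNA caller, aligner and quantifier of these tables are not given in the sources used here (the submitters' processing notes list Bowtie 0.12.2 and mm8 with no role). Reads within a circle's exons may also count for its gene, so the quantities compared share reads.

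Estimated counts were summed by gene symbol, joined without regard to case (11 symbols), and rounded for the tests. Junction counts (sum of at least 6, 2779 circRNAs) and gene counts (14805 genes, filterByExpr) were fitted over all 6 libraries with edgeR 4.0.16 in R 4.3.3 by the quasi-likelihood test (glmQLFit and glmQLFTest), with TMM scaling. Junctions per source gene count used the log of the source gene count as an offset (2694 circRNAs), so that a change is relative to mRNA counts. Adjusted p is by Benjamini-Hochberg over all features tested, and p-values rest on 2 libraries per age. DESeq2 1.42.0, other filters and scalings, a replicate block and leaving out each library were alternatives. The scripts were tested on simulated data. Levels with a rate per length used FPKM sums.

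The circRNAs, the comparisons and the 14 gene lists (299 genes) were chosen with earlier results of these data known. Named circRNAs were the 10 of highest mean RPM, those with an adjusted p under 0.05 in a comparison (otherwise the 3 of smallest p in each direction with separate libraries), the 5 highest and 5 lowest per length, those of genes with 3 or more, examples of each list, and those next to the minimum of 5. The lncRNA and miRNA tables were not used here. Some circRNAs that this rule selects are not reported here.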

Additional observations from a re-analysis of the deposited data

How the results depend on the processing

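For junctions per source gene count, scaled to total circRNA junctions, an alternative chosen after seeing the data, 5 circRNAs passed the study threshold from 2W to 6W (4 higher and 1 lower, against 39 and 0) and 6 from 6W to 3M, with 0 at an adjusted p under 0.05 from 2W to 6W. Scaled by TMM of the junction counts, 10 passed from 6W to 3M, and the median changes of the 202 circRNAs were 0.45 and -0.21 over these intervals. DESeq2 gave 4 from 2W to 3M and 0 adjusted from 2W to 6W. For junction counts alone, the threshold was passed from 2W to 6W by 9 (filterByExpr, which keeps 250 circRNAs, 2 higher and 7 lower) and 8 (DESeq2, 2 higher and 6 lower), against 11 higher and 4 lower, and from 6W to 3M by 10 (library totals), 11 (no filter), 9 (filterByExpr) and 9 (DESeq2). By adjusted p, 1 (library totals) and 2 (filterByExpr) were called from 2W to 6W, and 2 from 6W to 3M under library totals, no filter, filterByExpr and DESeq2 each. For source genes, adjusted calls were 2 (no filter) and 7 (DESeq2) from 2W to 6W, 1 (DESeq2) from 6W to 3M, and 23 (DESeq2) from 2W to 3M. The cause was not tested.

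With a minimum of 3 counts in every library, the median junctions per 1000 source gene counts were 3.76 at 2W, 6.01 at 6W and 4.27 at 3M. A minimum of 10 gave 8.29, 13.7 and 8.69, and annotated transcripts alone as denominator gave 6.02, 8.99 and 6.59. Leaving out the antisense or the Satb1 circles, both chosen after seeing the data, moved no median by more than the SD. By these averages 6W was highest under each, while the libraries of 2W and 3M overlapped at the minimum of 10.

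When 1 library was left out, circRNAs past the threshold ran from 14 to 21, from 11 to 25 and from 9 to 23 for junction counts (2W to 6W, 6W to 3M, 2W to 3M), with 0, 0 to 4 and 0 to 1 adjusted calls. For junctions per source gene count they ran from 26 to 44, from 14 to 42 and from 8 to 16, with 0 to 1, 0 and 0 adjusted calls. The 42 were those without 3M replicate 2, the deeper of the 3M libraries, and the median log2 change from 2W to 3M was then -0.06. The 11 were those without 2W replicate 1, the 23 those without 2W replicate 2, and the 9 and 16 those without 3M replicate 1. Adjusted calls of source genes ran from 0 to 4, 0, and from 0 to 22, the 22 without 3M replicate 1, where any other library left out gave 6 or fewer. By library left out, the medians were 5.09 and 5.25 at 2W, 7.66 and 8.70 at 6W, then 5.86 and 6.60 at 3M. A lone library of an age was assumed to vary like the others.

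Whether the replicate numbers pair the samples was not settled. The log2 deviation of replicate 1 from the mean of its age was correlated between ages. This gave values from -0.20 to 0.19 over the 212 circRNAs and from -0.33 to 0.35 over genes. With so few libraries such values cannot show or exclude a pairing. With the replicate block, adjusted calls were 0 for junctions per source gene count from 2W to 6W and 3 for junction counts from 6W to 3M, and for source genes 0 from 2W to 6W and 1 from 2W to 3M.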
